A study of Homo sapiens with 8 samples.

Results

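NRF2, encoded by *NFE2L2*, is the transcription factor that switches on antioxidant and detoxifying genes. The members described here are *NFE2L2*, its repressor *KEAP1* and 7 target genes, *GCLC*, *GCLM*, *TXN*, *PRDX1*, *SRXN1*, *NQO1* and *OSGIN1*. They were taken as a named list and matched by gene symbol. All 9 were found among the 58051 genes counted in every library, and all 9 passed the filter on low counts with which 17671 genes were tested. RNA was sequenced from A375, an established human melanoma cell line. The samples were 4 wild-type lines, WT1 to WT4, each grown from a single A375 cell and therefore a clone. Each line was cultured for 12 h in DMEM medium with 10% fetal bovine serum (serum) or without serum (serum-free), which gave 4 libraries per condition. The question of the design was how transcription in these cells responds to serum withdrawal.

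In cells without oxidative stress, KEAP1 holds NRF2 in the cytoplasm and presents it to the CUL3 and RBX1 ubiquitin ligase, so that NRF2 is degraded. Oxidants and electrophiles modify cysteines of KEAP1, and NRF2 then accumulates, pairs with a small MAF protein and binds antioxidant response elements near its targets. This control acts largely on the protein, so mRNA of *NFE2L2* and *KEAP1* gives the amount of template and not the activity of the pathway. In melanoma, as in other cancers, the pathway is known for buffering oxidative stress.

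With serum, 29759279 to 67101005 reads per library fell on genes, and without serum 37847737 to 73341551. *SRXN1* had the fewest reads of the members (210 to 636 per library) and *NQO1* had up to 59767. The serum libraries of WT1 and WT2 stood apart in 1 respect, since 22.7% and 16.8% of their reads had aligned to several places, against 5.73% to 10.1% in the other 6 libraries. Melanocyte-lineage genes were partly present: *MITF* was at 30.1 to 44.2 CPM (counts scaled to the library's size) and *S100B* at 13.6 to 34.9. *SOX10* was at 0 counts in all 8 libraries, and counting error alone allows up to 3 counts in each. Reads falling in several genes stayed out of the counts, so 0 does not show that *SOX10* was absent. *PMEL*, *MLANA*, *TYR*, *TYRP1* and *DCT* reached at most 2.90 CPM. *AXL* and *NGFR*, genes of undifferentiated melanoma cells, were at 309 to 656 and 24.1 to 199 CPM, *EGFR* was at 8.98 to 36.3 CPM, and *SOX9* of the same list was at 0 to 0.64 CPM. Of the markers of other cell types, the leukocyte gene *PTPRC* and the epithelial gene *CDH1* stayed at or below 0.0514 and 0.0948 CPM, while the keratinocyte gene *KRT14* was at 11.6 to 21.0 CPM, the leukocyte gene *LYZ* at 2.5 to 7.55 and the fibroblast gene *LUM* at 2.53 to 7.10.

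Promoter sequences were available for 8 of the 9 members, from RefSeq on GRCh38.p14 (250 bases before to 50 bases after the start of a transcript), as 10 promoters. They are shown where they hold the core of the antioxidant response element or the related AP-1 motif, because the first is the sequence that NRF2 recognises. The core was searched as TGACNNNGC and the AP-1 motif as TGANTCA, each on both strands. The core was present in 13.3% of all 35116 promoters and the AP-1 motif in 7.71%. Among the members, 2 of the 10 promoters held the core, that of *GCLM* and the downstream one of *KEAP1*, and 1 held the AP-1 motif, that of *OSGIN1*. The windows below read 5′ to 3′ along the gene, with the match in capitals.
GCLM, chr1:93909445-93909474, minus strand, match on the opposite strand 34 bases before the start: tacgatttctGCTTAGTCAttgtcttccag
KEAP1, chr19:10502783-10502812, minus strand, match on the opposite strand 31 bases before the downstream start: gcccggctctGCTTAGTCAtggtgacctgc
KEAP1, chr19:10502806-10502835, minus strand, match on the gene's strand 54 bases before the downstream start: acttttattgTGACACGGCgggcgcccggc
OSGIN1, chr16:83953133-83953160, plus strand, match on the gene's strand 97 bases before the start: gggcccctgcTGACTCAcgcttatgaaa
The *GCLM* match and the first *KEAP1* match were the same 9 letters, TGACTAAGC. Both *KEAP1* windows lie inside the outer bounds of the gene, between its 2 starts. No match was found in these windows of *NFE2L2*, *GCLC*, *TXN*, *SRXN1* or *NQO1*, which says only that the letters are not there.

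Serum withdrawal was followed by changes in both directions. *NQO1*, *GCLC* and *OSGIN1* rose, *NFE2L2* fell, and the other 5 did not pass the test (adjusted p under 0.05, quasi-likelihood test of edgeR with the Benjamini-Hochberg method). So 4 of 9 members were called, beside 25.1% of all tested genes, and 3 of 9 rose, beside 11.1%. The single fall stands beside 14.0% of all genes. The line number marks the same cell line in both conditions, and with the line as a replicate block 7 of 9 members were called, beside 45.7%. *KEAP1* then passed as higher and *GCLM* and *PRDX1* as lower. With GC content added to the blocked fit 6 of 9 were called, beside 47.3%, and *KEAP1* was not among them. In bulk RNA a smaller share of cells with a transcript and less of it per cell cannot be told apart.

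**Figure D1:**
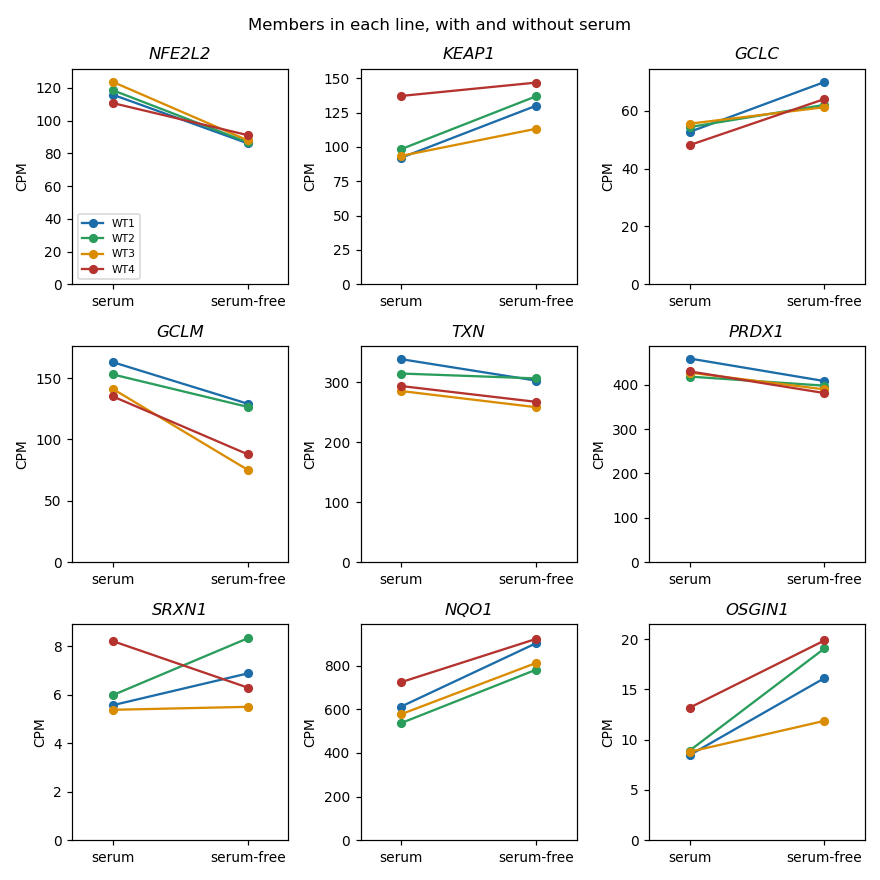
Each panel plots 1 member in CPM (vertical axis, from 0) with serum and without serum, and each line joins the 2 libraries of 1 cell line. *NFE2L2* falls in all 4 lines to between 86.2 and 91.2 CPM, *NQO1* rises in all 4, and *SRXN1* falls in WT4 while it is higher in the other 3.

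*NFE2L2* (ENSG00000116044, chromosome 2 of GRCh38, 177230303 to 177264727) was at 116, 119, 124 and 111 CPM with serum in WT1 to WT4. Without serum it was at 86.2, 86.8, 88.0 and 91.2 CPM in the same order. All 4 serum-free libraries were lower than all 4 serum libraries, and the serum-free values lay within a few CPM of each other. The mean was 117 ± 5.40 CPM with serum and 88.0 ± 2.22 CPM without serum (SD, n = 4), and the log2 fold change was -0.41 ± 0.06 (SE; edgeR's adjusted p = 0.00204). The change within a line was -25.7%, -26.8%, -28.9% and -17.7%, smallest in WT4. *NFE2L2* passed the threshold in all 21 alternative analyses, with log2 fold changes from -0.46 to -0.35. It was also the one member still called when the serum libraries of WT1 and WT2 were left out (edgeR's adjusted p = 0.0336).

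*KEAP1* (ENSG00000079999, chromosome 19, 10486125 to 10503356) moved the other way. With serum it was at 92.1, 98.4, 93.5 and 137 CPM, and without serum at 130, 137, 113 and 147 CPM. Each line was higher without serum, but WT4 was already high with serum, so the groups overlapped. The means were 105 ± 21.4 and 132 ± 14.1 CPM (SD, n = 4), and the log2 difference of 0.32 ± 0.13 (SE) did not pass the test (edgeR's adjusted p = 0.108). It passed with the line as a block (0.34, edgeR's adjusted p = 8.67e-04), without WT4 (0.42, edgeR's adjusted p = 0.00345) and without the serum library of WT4 alone (0.48, edgeR's adjusted p = 0.00389). Without the serum libraries of WT1 and WT2 *KEAP1* was at 0.19 (edgeR's adjusted p = 0.510). *KEAP1* has a high GC content, 60.8%, and the difference was 0.04 when GC content was added to the blocked fit (edgeR's adjusted p = 0.565). The ratio of *KEAP1* to *NFE2L2* mRNA was higher without serum in every line, by 0.92, 0.93, 0.77 and 0.38 on the log2 scale in WT1 to WT4.

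*GCLC* and *GCLM* encode the catalytic and the modifier subunit of glutamate-cysteine ligase, the first and limiting enzyme of glutathione synthesis. *GCLC* (ENSG00000001084, chromosome 6, 53497341 to 53545101) was at 52.6, 54.3, 55.5 and 48.1 CPM with serum and at 69.9, 62.0, 61.2 and 64.0 CPM without serum. The groups did not overlap, and *GCLC* rose by 0.29 ± 0.07 on the log2 scale (SE; edgeR's adjusted p = 0.0173). *GCLM* (ENSG00000023909, chromosome 1, 93885199 to 93909430) went down from 163, 153, 141 and 135 CPM to 129, 126, 75.2 and 87.9 CPM. These groups did not overlap either, but the size of the drop was uneven, at -20.8% and -17.3% in WT1 and WT2 against -46.7% and -34.9% in WT3 and WT4. The log2 difference was -0.50 ± 0.17 (SE; edgeR's adjusted p = 0.0614), and with the line as a block it passed (-0.53, edgeR's adjusted p = 3.16e-04). *GCLM* also passed in DESeq2 (adjusted p = 0.0157) and in limma's voom (adjusted p = 0.0428). It passed too when the serum-free library of WT1 (edgeR's adjusted p = 0.0324) or of WT2 (edgeR's adjusted p = 0.0408) was left out. In all, *GCLM* passed in only 6 of the 21 alternative analyses, including the blocked fit with GC content (-0.41). Without the serum-free library of WT3 its difference was -0.38 and did not pass. The ratio of *GCLM* to *GCLC* mRNA was lower without serum in all 4 lines, with log2 changes of -0.74, -0.46, -1.05 and -1.03 in WT1 to WT4. The *GCLC* call was lost when WT1, WT2 or WT3 was left out (edgeR's adjusted p = 0.116, 0.0695 and 0.0570) and without the serum libraries of WT1 and WT2 (edgeR's adjusted p = 0.107).

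*NQO1* (ENSG00000181019, chromosome 16, 69709401 to 69726560) encodes a quinone reductase that uses NADPH, and is the textbook reporter of NRF2 activity. It was at 613, 537, 578 and 725 CPM with serum and at 904, 782, 813 and 923 CPM without serum. Every serum-free library was above every serum library, and WT4 was the highest line in both conditions. The mean rose from 613 ± 80.6 to 856 ± 68.5 CPM (SD, n = 4), by 0.48 ± 0.10 on the log2 scale (SE; edgeR's adjusted p = 0.00767). Within a line the gain was 47.4%, 45.6%, 40.7% and 27.4%, again smallest in WT4. The log2 fold change stayed at 0.46 with GC content in the blocked fit. Left without WT1 or WT3, or without the serum libraries of WT1 and WT2, the test no longer passed (edgeR's adjusted p = 0.0640, 0.0609 and 0.0868).

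*OSGIN1* (ENSG00000140961, chromosome 16, 83953240 to 83966332), an oxidative stress-induced growth inhibitor and known NRF2 target, had the largest log2 fold change of the 9 members without GC correction. It was at 8.45, 8.90, 8.79 and 13.2 CPM with serum and at 16.1, 19.1, 11.9 and 19.9 CPM without serum. The groups overlapped by 1 pair, since WT4 with serum was above WT3 without serum. It rose by 0.77 ± 0.19 on the log2 scale (SE; edgeR's adjusted p = 0.0175), and within lines the increase ran from 35.1% in WT3 to 114% in WT2. *OSGIN1* has a GC content of 63.5%, and with GC content in the blocked fit the rise was 0.43 (edgeR's adjusted p = 0.00214), below the 0.46 of *NQO1*. The unblocked call was lost without the serum library of WT1, WT2 or WT3 (edgeR's adjusted p = 0.0555, 0.0508 and 0.0539), without the serum-free library of WT4 (edgeR's adjusted p = 0.0506), without line WT1 or WT2 (edgeR's adjusted p = 0.101 and 0.102), and without the serum libraries of WT1 and WT2 (edgeR's adjusted p = 0.172).

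None of the 3 members of the thioredoxin system passed the unblocked test. *TXN* (ENSG00000136810, chromosome 9, 110243810 to 110256507) encodes thioredoxin, which reduces disulfides in proteins, and was at 339, 315, 286 and 294 CPM with serum and 303, 307, 259 and 268 CPM without serum. It was lower in every line, with changes from -10.6% to -2.58%, but the groups overlapped, and the 95% interval of its log2 difference ran from -0.30 to 0.06 (edgeR's adjusted p = 0.320). *PRDX1* (ENSG00000117450, chromosome 1, 45511051 to 45522890) encodes a peroxiredoxin, which removes hydrogen peroxide and is recharged by thioredoxin. Its values were 459, 418, 427 and 430 CPM with serum and 408, 398, 390 and 381 CPM without serum. The groups did not overlap, but the gap was small, with a log2 difference of -0.14 ± 0.06 (SE; edgeR's adjusted p = 0.104, or 0.0368 with the line as a block, and -0.23 with GC content in the blocked fit). With upper-quartile scaling it was at -0.073 (edgeR's adjusted p = 0.357). *SRXN1* (ENSG00000271303, chromosome 20, 646615 to 653200) encodes sulfiredoxin, which restores overoxidised peroxiredoxins. It was at 5.57, 5.98, 5.37 and 8.21 CPM with serum and at 6.88, 8.32, 5.50 and 6.29 CPM without serum. WT4 was lower and the other 3 lines were higher, and the interval of the log2 difference, -0.30 to 0.51, covered changes of either sign (edgeR's adjusted p = 0.707). The signs of *TXN* and *SRXN1* flipped, to 0.01 and -0.04, with GC content in the blocked fit.

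**Figure D2:**
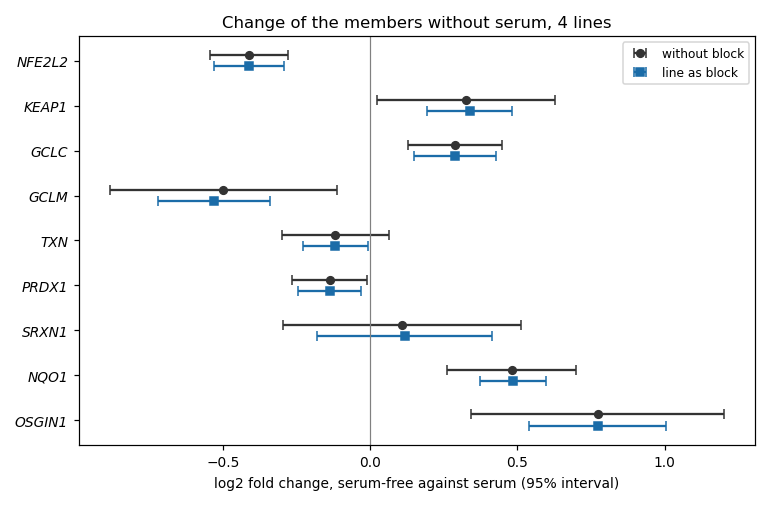
The log2 fold change of each member, serum-free against serum, is plotted with its 95% interval from edgeR, without a block (circles) and with the cell line as a block (squares). The block leaves the centres nearly in place and narrows the intervals, as for *OSGIN1*, from 0.34 to 1.20 without it and from 0.54 to 1.01 with it.

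Direction was shared across the lines for 8 of the 9 members, *SRXN1* being the exception. Such agreement in direction is common in these data, since 28.8% of all tested genes were higher and 26.6% lower in all 4 lines. Serum and serum-free libraries did not overlap for 5 members, *NFE2L2*, *GCLC*, *GCLM*, *PRDX1* and *NQO1*, beside 27.5% of all genes. Of these 5, *GCLC* and *NQO1* were higher without serum, beside 12.6%, and the other 3 were lower, beside 15.0%. The size of the difference varied most for *OSGIN1*, *SRXN1* and *GCLM*. *KEAP1*, *NQO1* and *NFE2L2* each had their smallest difference in WT4. Whether lines respond differently could not be tested, because each line has 1 library per condition.

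**Figure D3:**
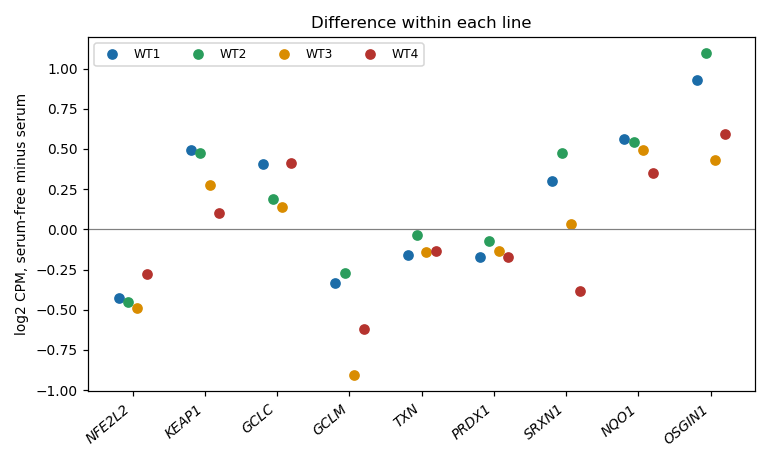
Each point is the log2 CPM of 1 line without serum minus that with serum, for the 9 members along the horizontal axis. All 4 points of *KEAP1*, *GCLC*, *NQO1* and *OSGIN1* lie above 0 and all 4 of *NFE2L2*, *GCLM*, *TXN* and *PRDX1* below it, while *SRXN1* runs from -0.38 in WT4 to 0.47 in WT2.

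The lines themselves also differed, in a test among the 4 lines with the condition in the fit. *KEAP1* (edgeR's adjusted p = 0.00930), *NQO1* (edgeR's adjusted p = 0.0153), *GCLM* (edgeR's adjusted p = 0.0211) and *OSGIN1* (edgeR's adjusted p = 0.0293) passed, 4 of 9 members beside 22.9% of all genes. *KEAP1*, *NQO1* and *OSGIN1* were highest in WT4 in both conditions. *GCLM* was highest in WT1 and second in WT2 in both conditions. *NFE2L2* spanned only a ratio of 1.12 between the highest and lowest line with serum and 1.06 without serum, and did not pass (edgeR's adjusted p = 0.915). The count of members that differed among lines fell to 0 of 9 in edgeR without the serum-free library of WT3, where 4 had an unadjusted p under 0.05 and the lowest adjusted p was 0.0659, and to 2 without WT4. Over all genes the count went from 4055 to 2442 (13.4%) and 3296 (18.6%) in these fits. No other tool was run for this test. The identity of WT4 rests on the labels, because its deposited counts carry another name.

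Levels between genes were compared per length, as RPKM (reads scaled to the length of the merged exons and to the library's size). With serum the order was *TXN* at 305 ± 23.5 RPKM, *PRDX1* at 258 ± 10.5, *NQO1* at 206 ± 27.1, *KEAP1* at 29.5 ± 5.98, *GCLM* at 27.3 ± 2.29, *NFE2L2* at 7.83 ± 0.36, *GCLC* at 6.11 ± 0.38, *SRXN1* at 2.48 ± 0.52 and *OSGIN1* at 1.77 ± 0.40 RPKM (SD, n = 4). The values of *KEAP1* and *GCLM* overlapped, as did those of *SRXN1* and *OSGIN1*, and the other neighbours were separate in all 4 lines. The median of all 17425 genes with a length was 2.75 RPKM, so *TXN*, *PRDX1* and *NQO1* were among the most abundant transcripts, at ranks 96, 124 and 164. Without serum *NQO1* reached 288 ± 23.1 RPKM, beside 281 ± 24.2 for *TXN* and 234 ± 6.87 for *PRDX1*, and its rank went to 90. The level of *NFE2L2* depends on the length used, since its merged exons span 14975 bases and its longest transcript 5104. With the longest transcript it was at 23.0 RPKM with serum, and 35 of the 36 pairwise orders among the members with serum were kept. Without serum, *NQO1* (339 RPKM) was then below *TXN* (385 RPKM), and *NFE2L2* (17.2 RPKM) above *GCLC* (17.0 RPKM).

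**Figure D4:**
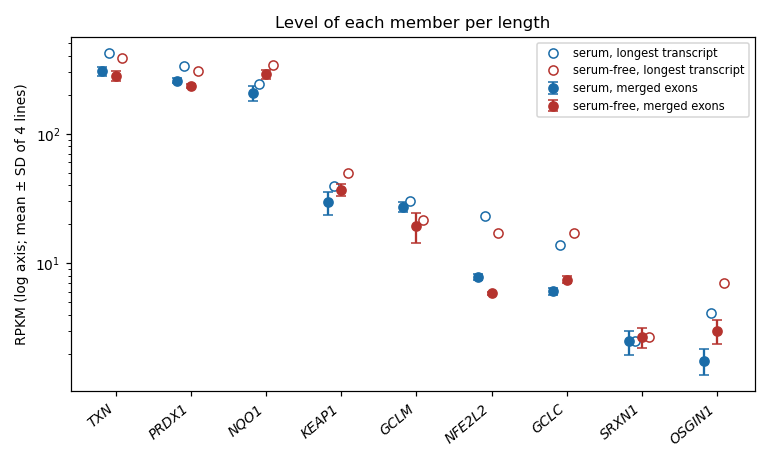
RPKM (log axis) of the 9 members with serum (blue) and without serum (red), as mean ± SD of the 4 lines with merged exon length (filled), and as the mean with the longest transcript's length (open). *TXN*, *PRDX1* and *NQO1* sit above 200 RPKM and the other 6 members below 40 RPKM with merged exon length.

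The genes whose log2 CPM followed a member most closely over the 8 libraries were sought among 11531 protein-coding genes averaging 100 counts or more. For *NFE2L2* they were *MTF1* (Pearson's r = 0.997), *ISCA1* (r = 0.988) and *BAG5* (r = 0.987). For *KEAP1* they were *SLC66A1* (r = 0.996), *SCAP* (r = 0.991) and *FLII* (r = 0.990), and for *NQO1* they were *ADCY6* (r = 0.995), *MRAS* (r = 0.987) and *PAK6* (r = 0.985). The 8 points share the 4 lines and the 2 conditions, so these values describe the libraries and carry no test.

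Beyond the members, 79 further genes of the pathway were listed in 7 groups, and 76 of them were tested. In all, 8 rose and 15 fell, beside 11.1% and 14.0% of all genes, with a median log2 fold change of 0.13 against 0.03 for all genes. With the line as a block, 33 were higher and 18 lower, beside 23.2% and 22.4%, and with GC content added 21 were higher and 27 lower, beside 16.4% and 30.9%. Without the serum libraries of WT1 and WT2, 4 of the listed genes were called, beside 5.88% of all genes.

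Among the 12 other regulators, 2 rose and 3 fell. *MAFK*, a small MAF partner of NRF2, was at 21.1, 27.3, 24.7 and 28.4 CPM with serum and at 38.3, 45.2, 35.7 and 38.5 CPM without serum, a rise of 0.64 ± 0.11 on the log2 scale (SE; edgeR's adjusted p = 0.00396). *BACH2*, a repressor that binds the same kind of element, rose by 1.27 ± 0.18 (SE; edgeR's adjusted p = 0.00204) from a low level, 2.32 to 5.61 CPM on average. *RBX1* and *CUL3*, which form the ligase that KEAP1 recruits, both fell, with log2 fold changes of -0.30 for *RBX1* (edgeR's adjusted p = 0.00753) and -0.33 for *CUL3* (edgeR's adjusted p = 0.0123). *CUL3* was at 102, 94.8, 97.8 and 85.0 CPM with serum and at 78.2, 79.7, 69.1 and 74.5 CPM without serum, with no overlap. *NFE2L3*, a relative of NRF2, also fell (-0.40, edgeR's adjusted p = 0.0164). *SQSTM1*, an autophagy receptor that binds KEAP1, was higher in all 4 lines (0.48, edgeR's adjusted p = 0.138, or 3.99e-05 with the line as a block), and differed strongly among the lines, with 442 CPM in WT4 and 230 to 284 CPM in the other lines with serum. *BACH1* (0.22, edgeR's adjusted p = 0.112) and *MAFG* (0.16, edgeR's adjusted p = 0.186) did not pass without a block and passed with it (edgeR's adjusted p = 0.0261 and 0.0367), and with GC content in the blocked fit *BACH1* was at 0.32 (edgeR's adjusted p = 1.85e-04) while the sign of *MAFG* flipped to -0.08. Without a block, *BACH1* was at 0.13 without WT4 and at 0.30 without the serum library of WT3, where it passed (edgeR's adjusted p = 0.0409), and *MAFG* was at 0.10 without the serum-free library of WT4. With GC content in the blocked fit the differences of *MAFK*, *SQSTM1* and *CUL3* were smaller, at 0.30, 0.27 and -0.21, and each passed.

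Of 19 tested glutathione genes, 1 rose and 4 fell without a block. With the line as a block 7 were higher and 6 lower, beside 23.2% and 22.4% of all genes. *ABCC3*, which exports glutathione and other conjugates, was at 6.89, 5.75, 3.51 and 7.04 CPM with serum and at 23.9, 18.4, 8.55 and 16.5 CPM without serum. No serum-free library was below the highest serum library, and the rise was 1.54 ± 0.33 on the log2 scale (SE; edgeR's adjusted p = 0.0107). The falls were those of *SLC3A2* (-0.75, edgeR's adjusted p = 0.0429), the heavy chain of the cystine transporter, *GPX1* (-0.46, edgeR's adjusted p = 0.0322), a peroxidase that uses glutathione, *ABCC4* (-0.29, edgeR's adjusted p = 0.0367), another exporter, and *GSR* (-0.24, edgeR's adjusted p = 0.0251), which regenerates reduced glutathione. *SLC7A11*, the light chain of the same transporter and an NRF2 target, was at 128, 172, 98.8 and 128 CPM with serum and at 155, 174, 87.6 and 202 CPM without serum. It was higher in 3 lines and lower in WT3 (0.23, edgeR's adjusted p = 0.554), and it passed with GC content in the blocked fit (0.36, edgeR's adjusted p = 0.00954). Its unblocked value ran from 0.067 without WT4 to 0.42 without the serum-free library of WT3, and no such fit that left out 1 library or line passed. The value of *GPX1* was -0.30 without the serum library of WT4, where it was at 277 CPM against 181 to 200 CPM in the other lines, and -0.79 with GC content in the blocked fit.

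Of 12 further thioredoxin-system genes, 1 rose and 5 fell. The falls included 3 peroxiredoxins, *PRDX3* (-0.47, edgeR's adjusted p = 0.00364), *PRDX4* (-0.34, edgeR's adjusted p = 0.00647) and *PRDX6* (-0.27, edgeR's adjusted p = 0.00768), which act in mitochondria, the endoplasmic reticulum and the cytosol. The other 2 peroxiredoxins of the list, *PRDX2* and *PRDX5*, were each higher in 3 of 4 lines and did not pass (both 0.18, edgeR's adjusted p = 0.355 and 0.222). *PRDX2* passed with the line as a block (0.19, edgeR's adjusted p = 0.0211), and both signs flipped, to -0.039 and -0.11, with GC content in the blocked fit. Without the serum library of WT4 both passed (0.31 and 0.28, edgeR's adjusted p = 0.0441 and 0.0264), as did *PRDX5* without WT4 (0.30, edgeR's adjusted p = 0.0206), whereas *PRDX2* was at 0.11 without the serum library of WT1 and *PRDX5* at 0.084 without WT3. *GLRX2*, a mitochondrial glutaredoxin (-0.49, edgeR's adjusted p = 0.00293), and *SESN2*, a stress-induced sestrin (-0.74, edgeR's adjusted p = 0.0208), fell as well. None of these 5 had overlapping groups. The rise was that of *GLRX*, the cytosolic glutaredoxin (0.46, edgeR's adjusted p = 0.0278). *TXNRD1*, the reductase that recharges thioredoxin and an NRF2 target, was at 639, 597, 516 and 565 CPM with serum and at 940, 944, 590 and 632 CPM without serum. Its increase was large in WT1 and WT2 and small in WT3 and WT4 (0.42, edgeR's adjusted p = 0.0902, or 8.78e-04 with the line as a block). *TXNIP*, which inhibits thioredoxin, was higher in all 4 lines without passing (0.48, edgeR's adjusted p = 0.175, or 0.0390 with the line as a block). The difference was largest in WT4, and without the serum library of WT4 the value was 0.31 (edgeR's adjusted p = 0.231).

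Among 12 genes for quinones, carbonyls and xenobiotics, only *EPHX1*, the microsomal epoxide hydrolase, passed, with a rise of 0.36 (edgeR's adjusted p = 0.0253), and with GC content in the blocked fit its difference was 0.14 and did not pass (edgeR's adjusted p = 0.0926). The aldo-keto reductases *AKR1C1*, *AKR1C2* and *AKR1C3*, known NRF2 targets in human cells, had larger differences, of 1.41, 1.24 and 1.03, short of the threshold (edgeR's adjusted p = 0.151, 0.0986 and 0.152). *AKR1C2* was at 10.2, 4.41, 4.07 and 7.15 CPM with serum and at 26.5, 8.97, 6.96 and 18.3 CPM without serum, so that each line was higher while the lines lay far apart. With the line as a block all 3 passed (edgeR's adjusted p = 2.54e-04, 2.21e-06 and 6.57e-06). *AKR1C3* passed in DESeq2 (adjusted p = 0.0430), and *AKR1C1* passed without WT3 (edgeR's adjusted p = 0.0352) or without its serum-free library (edgeR's adjusted p = 0.0461). Without the serum-free library of WT1 the values of *AKR1C2* and *AKR1C3* were 0.82 and 0.70. The 3 sequences are much alike, and reads that aligned to more than 1 of them were left out of the counts, so their separate values are uncertain.

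In the heme and iron group, 1 of 7 tested genes rose and 1 fell. *HMOX1*, the stress-induced enzyme that breaks down heme, was at 31.0, 38.2, 26.0 and 41.2 CPM with serum and at 25.1, 24.1, 16.0 and 17.3 CPM without serum. It fell without overlap, with a log2 fold change of -0.72 ± 0.19 (SE; edgeR's adjusted p = 0.0221), and was lower in every line, least in WT1. *FECH*, which inserts iron into heme, rose by 0.34 (edgeR's adjusted p = 0.00747). Of 6 genes that supply NADPH, *IDH1* rose by 0.51 ± 0.10 (SE; edgeR's adjusted p = 0.00743), from 51.9, 60.0, 65.8 and 68.1 CPM to 77.4, 82.6, 92.8 and 97.9 CPM, and *ME1*, the cytosolic malic enzyme, fell (-0.23, edgeR's adjusted p = 0.0301). Of 8 tested genes that handle superoxide and peroxide, *CCS*, the copper chaperone of superoxide dismutase, rose by 0.38 (edgeR's adjusted p = 0.0367) and *GPX8*, a peroxidase of the endoplasmic reticulum, fell (-0.50, edgeR's adjusted p = 0.0105). With GC content in the blocked fit *CCS* was at 0.07 and did not pass (edgeR's adjusted p = 0.583), and *ME1* was at -0.15 (edgeR's adjusted p = 0.0330).

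**Figure D5:**
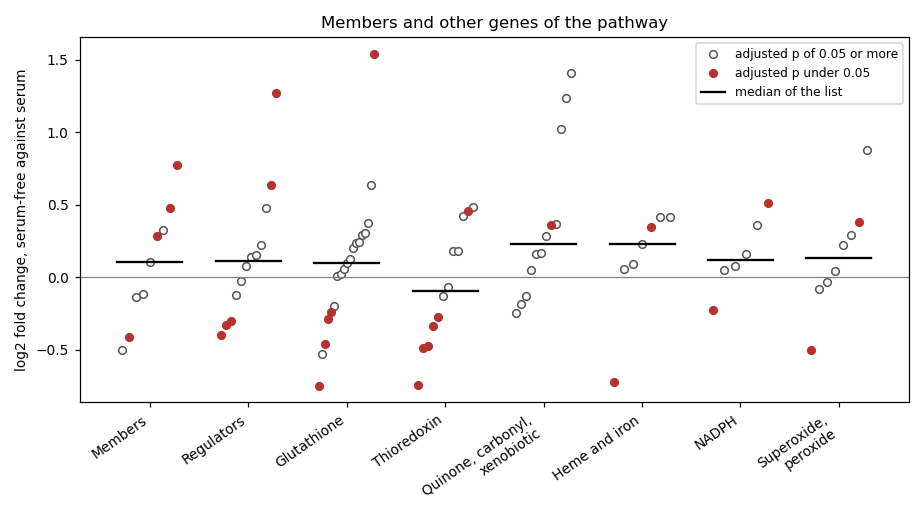
Each point is the log2 fold change of 1 tested gene, serum-free against serum, for the members and the 7 other groups of pathway genes, filled where edgeR's adjusted p was under 0.05. Bars mark the median of each group. Filled points lie on both sides of 0 in every group but the quinone, carbonyl and xenobiotic group, which has 1.

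Many of these calls depended on the libraries and settings used. Of the genes outside the 9 members, *BACH2*, *MAFK*, *PRDX3* and *GLRX2* passed in all 21 alternatives. *FECH*, *IDH1* and *PRDX4* passed in 19 of 21, *ABCC3*, *RBX1*, *GPX8* and *PRDX6* in 18, *CUL3* and *NFE2L3* in 17, *SESN2* in 15 and *HMOX1* in 14. The calls of *GSR*, *GPX1*, *EPHX1*, *GLRX*, *ABCC4*, *SLC3A2*, *ME1* and *CCS* were held in 8 to 12 of 21. The core of the antioxidant response element was found in 20 of the 93 promoters that the table holds for these further pathway genes, beside 13.3% of all promoters, and the AP-1 motif in 4 of the 93, beside 7.71%.

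Since reads aligned to several places or falling in several genes stayed out of the counts, the counts of neighbours and copies hold only reads unique to them, and do not show how many reads a member lost to them. *NECAB2*, which overlaps *OSGIN1*, had 8 to 25 counts, *GCLC-AS1* had 0 to 5, *PRDX1P1* had 8 to 40, and the *TXN* pseudogenes had at most 15. *MMACHC*, which overlaps *PRDX1*, had 889 to 1831 counts and a log2 difference of -0.10 (edgeR's adjusted p = 0.571). The strand setting of the counting is not given in the sources used here, so reads of overlapping genes cannot be told apart by strand.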

How the data were processed

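The authors deposited whole-number read counts per gene for each library, from rRNA-depleted total RNA sequenced as paired reads. The submitters' processing notes name cutadapt, TopHat2 2.0.11, HTSeq and GRCh38, while Tophat, hg19 and Cufflinks in the study's methods belong to FPKM values not used here. Reads aligned to several places (5.73% to 22.7% of a library) or falling in several genes (8.23% to 11.5%) stayed out of the counts. The annotation release is not given in the sources used here.

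Symbols were matched for 55604 of 58051 identifiers. Low counts were removed with filterByExpr. After TMM scaling, edgeR's quasi-likelihood test (version 4.0.16, robust, in R 4.3.3) compared serum-free with serum, 4 against 4, without a block, with Benjamini-Hochberg adjustment over 17671 genes. Differences among lines were tested with the condition in the fit. Log2 CPM used a prior count of 2. Lengths and GC content (17425 genes, 98.6%) were read from GENCODE on GRCh37, which is not the build of the counts, and positions from RefSeq on GRCh38.p14, matched by symbol. *SOD2* and *PECAM1* were not matched.

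Pairing comes from the line named in the labels. Deviations from condition means correlated at 0.403 to 0.604 between libraries of 1 line and at most 0.126 between lines. Taking out the means lowers the values between lines, so part of this contrast is built in. P-values without a block measure the spread between these lines, with 1 library per line and condition. With the line in the fit, they measure what is left after line and condition are taken out. Counts without molecular identifiers cover counting error only.

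Members and gene lists were chosen with earlier results of these data known. The text names the 9 members, *HMOX1*, *TXNRD1*, *SLC7A11*, *SQSTM1*, *BACH1*, *MAFG* and *TXNIP*, in each list the 3 called genes with the smallest p, and the 3 genes most like *NFE2L2*, *KEAP1* and *NQO1*. A gene that the rule also takes is not reported here. The 12 genes *CUL3*, *NFE2L3*, *SLC3A2*, *ABCC4*, *PRDX2*, *PRDX5*, *PRDX6*, *SESN2*, *GLRX*, *AKR1C1*, *AKR1C2* and *AKR1C3* were added after their values were seen. Alternatives were the line as a block, the block with GC content, DESeq2 1.42.0, limma's voom 3.58.1, RLE and upper-quartile scaling, other count filters, and each library or line left out. Leaving out the serum libraries of WT1 and WT2 was added after seeing the data. Scripts were tested on simulated data.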

Additional observations from a re-analysis of the deposited data

Results flagged for a closer look

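With serum, 1 line stood apart from the other 3 for 3 of the genes reported, by Dixon's test of the gap to the nearest line. *KEAP1* was at 137 CPM in WT4 and at 92.1 to 98.4 CPM in the other lines. *OSGIN1* was at 13.2 CPM in WT4 and at 8.45 to 8.90 CPM in the other lines. *SLC3A2* was at 746 CPM in WT2 and at 539 to 574 CPM in the other lines. In all, 88 sets of 4 libraries were searched, and at a chance rate of 1 in 20 about 4.4 would stand out, so 3 is no more than that rate gives.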

How the results depend on the processing

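With the line as a replicate block, 8067 genes were called in place of 4434, with 4106 higher and 3961 lower in place of 1957 and 2477. The same block called 7 of 9 members in place of 4, and 51 further pathway genes in place of 23. With the block and GC content, 8236 genes were called, 5376 of them lower, along with 48 further pathway genes. Upper-quartile scaling turned the split to 2508 higher and 1843 lower, 57.6% of calls in place of 44.1%, and GC content in the blocked fit turned it from 50.9% to 34.7%. Without the serum libraries of WT1 and WT2, 1098 genes were called, 374 higher and 724 lower, with 1 member and 4 further pathway genes.

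Leaving out a library or a line gave 1589 to 6128 calls, 620 to 2849 higher and 969 to 3279 lower, with 1 to 5 members and 6 to 36 further pathway genes. The fewest calls came without WT1 and the most without the serum library of WT4. Among lines, 2364 to 7580 genes differed, and 0 to 5 members.

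Signs reversed with the block and GC content for *TXN* (0.015), *SRXN1* (-0.038), *MAFG* (-0.084), *PRDX2* (-0.039) and *PRDX5* (-0.11). *SRXN1* and *PRDX2* also reversed without the serum libraries of WT1 and WT2 (-0.0081 and -0.015), and *SRXN1* ran from -0.034 to 0.29 with a library or line left out. The cause was not tested. Every other member and further pathway gene whose change is named above kept its direction in all 21 alternatives. Fewer libraries also mean less power, and the genes with the fewest reads, such as *BACH2* with 57 to 392 per library, carry the largest counting error.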
